A study of Mus musculus with 12 samples.

Results

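The aminoacyl-tRNA synthetases are the enzymes that join each amino acid to its transfer RNA, and 37 of their genes were read in fat of mice whose adipocytes lack NDUFS4. They were taken by symbol from the protein-coding genes of 2 deposited tables, and all 37 were present among the 16738 genes of inguinal white fat (iWAT) and among the 15363 genes of brown fat (BAT). By the suffix of the symbol 20 are cytosolic enzymes and 17 are mitochondrial. NDUFS4 belongs to complex I, the first enzyme of the respiratory chain. The labels give 12 libraries of iWAT from C57BL/6 mice in 4 groups of 3, namely KO females, WT females, KO males and WT males. All groups were fed a high-fat diet and housed at room temperature. The KO is named an adipocyte deletion, and the sources used here name neither the promoter that drives it, nor the age of the mice, nor how many animals stand behind a library. The p-values therefore measure only the spread between libraries, which may be technical. The groups behind the BAT table are not listed in the labels.

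Each synthetase charges the transfer RNA of a given amino acid, and the ribosome then uses the charged transfer RNA to read the messenger RNA. Mammalian cells keep separate nuclear genes for the cytosolic enzymes and for those imported into mitochondria, where they serve translation of the respiratory chain subunits encoded by mitochondrial DNA. Gars and Kars are exceptions, since each makes the cytosolic and the mitochondrial enzyme from the same gene, and both were counted here as cytosolic. Several cytosolic enzymes sit together on scaffold proteins in the multisynthetase complex. Many genes of cytosolic synthetases are targets of ATF4, the transcription factor of the integrated stress response that follows amino acid shortage and mitochondrial stress.

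The comparison is the interaction of genotype and sex in the authors' deposited table of each depot: the log2 difference of KO from WT in females, less the same difference in males. A value above 0 can come from a higher level in KO females than in WT females, a lower level in KO males than in WT males, or both. The order of the sexes was read from the name of the table and every sign rests on it. The KO effect within a sex, the values of single libraries and the depth behind them were not analysed here. In the authors' deposited table Ndufs4 itself, the deleted gene, had an interaction of 0.89 ± 0.38 (standard error, adjusted p = 0.169 in limma) in iWAT and -0.099 ± 0.14 (adjusted p = 0.946) in BAT. These values compare the sexes and do not check the genotype labels.

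The letters bound by ATF4 together with C/EBP proteins were found in promoters of 5 of the 13 genes read that were counted as cytosolic. The windows of Dars, Eprs, Farsa, Farsb, Kars, Mars1, Qars and Sars did not hold them. None of the 14 genes read that were counted as mitochondrial by suffix held the letters. As only 4.51% of all genes did, a count of 0 of 14 does not set the mitochondrial genes apart. The motif searched was TGATGNAA on both strands (TTNCATCA on the other), with no other motif searched, in windows that reach 250 bases before the gene start and 50 after it (RefSeq, GRCm38.p6). Windows were found for 27 of the 37 genes. The motif was in 5 of 13 cytosolic genes (38.5%) and 0 of 14 mitochondrial genes, against 1219 of all 27025 genes with a window (4.51%). Gars and Kars, which make the enzyme of both compartments, are among the 13, Gars with a match and Kars without. The split is therefore one of gene symbols and not strictly of compartments. Over single windows the share was 3.97% of 32851. A match is a description of the letters and not a site of binding. Among the genes without a window were Cars, Hars, Hars2, Lars, Nars, Pars2, Rars, Vars and Wars. The stretches around the 5 genes' matches are printed 5′ to 3′ on the strand of the gene, with the motif in capitals. They show where the letters lie in these windows.
Aars (chr8:111033690-111033871, plus strand): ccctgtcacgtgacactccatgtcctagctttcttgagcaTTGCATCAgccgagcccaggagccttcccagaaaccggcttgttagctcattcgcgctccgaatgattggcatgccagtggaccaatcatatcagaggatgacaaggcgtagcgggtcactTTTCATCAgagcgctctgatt
Gars (chr6:55037931-55038018, plus strand): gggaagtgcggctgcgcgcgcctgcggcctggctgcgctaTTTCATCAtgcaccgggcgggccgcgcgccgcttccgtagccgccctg
Iars (chr13:49682097-49682159, plus strand): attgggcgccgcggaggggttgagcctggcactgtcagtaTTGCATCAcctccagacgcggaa
Tars (chr15:11399629-11399713, minus strand): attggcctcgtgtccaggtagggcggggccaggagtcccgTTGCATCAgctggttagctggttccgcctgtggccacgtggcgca
Yars (chr4:129189866-129189932, plus strand): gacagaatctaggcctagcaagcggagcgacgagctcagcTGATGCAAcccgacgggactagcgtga
Positions here are on GRCm38.p6, while all gene coordinates below are those of the deposited tables on GRCm39. Counted from the gene start, Aars holds a first match from base -112 and a second from base 10. Matches began at base -30 in Gars, -15 in Tars, 8 in Iars and 4 in Yars. GENCODE M21 places all 5 genes on the same strand as RefSeq, and its nearest transcript start lies 37 bases downstream of the RefSeq start in Aars and 6 downstream in Gars, and within 7 bases of it in the other genes. Positions relative to the start therefore depend on the annotation, and the second match in Aars lies upstream of that GENCODE start. The 5 genes, which charge alanine, glycine, isoleucine, threonine and tyrosine, had interactions in iWAT per the authors' deposited table of 0.043, 0.76, 0.38, 0.38 and 0.81 in that order. None of the 5 passed the threshold.

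Did loss of NDUFS4 change the synthetase genes differently in females and males of the inguinal depot? None of the 37 genes passed an adjusted p of 0.05 in limma per the authors' deposited table, where 795 genes (4.75%) did, 177 (1.06%) above 0 and 618 (3.69%) below. Most values lay above 0, with 29 of 37 positive against 55.9% of all genes, and a median of 0.36 against 0.13 over all genes. At an unadjusted p of 0.05, 6 members were above 0 and 1 below, while over all genes 11.9% were above and 12.6% below. Those 7 were Nars2, Aars2, Iars2, Lars2, Eprs, Gars and Vars. The median over all genes was itself above 0, and relative to it 25 of the 37 stayed above. Relative to that median 960 genes passed over the whole table, 108 above and 852 below, and again none of them was a synthetase.

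**Figure D1:**
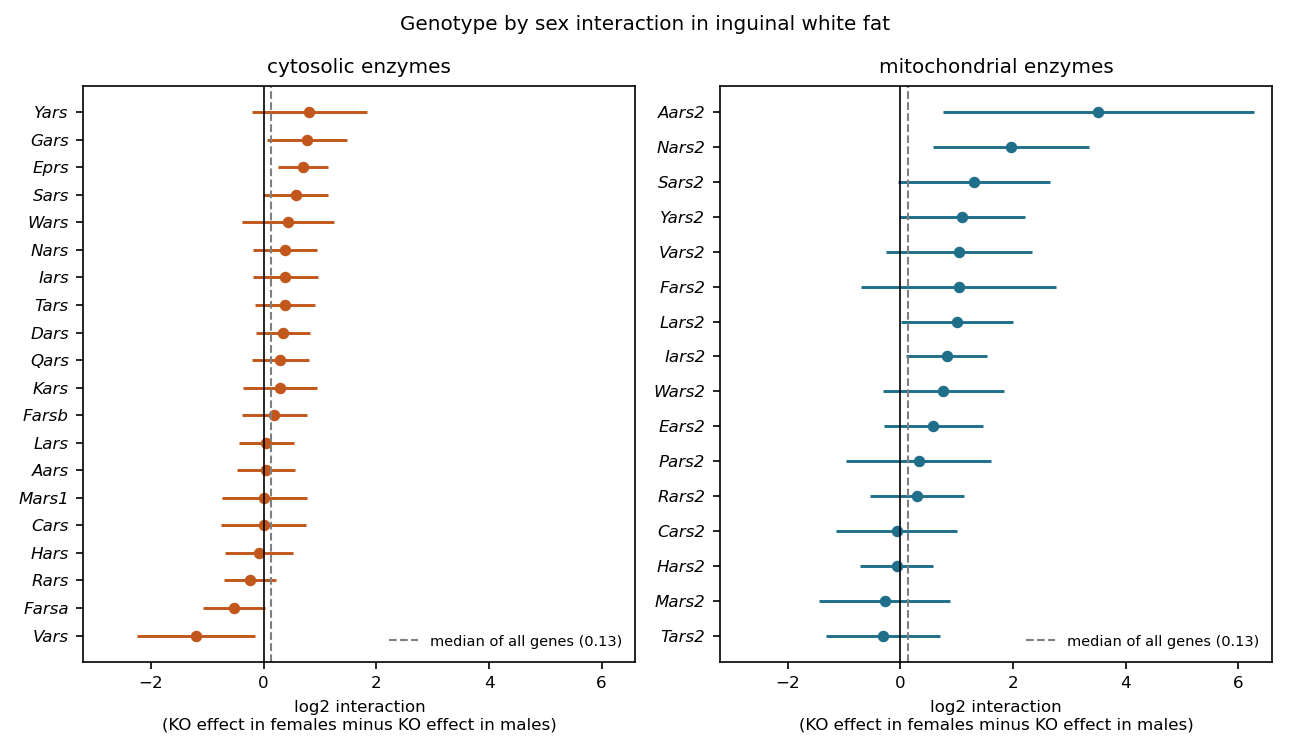
Genotype by sex interaction of the 20 cytosolic and 16 of the 17 mitochondrial synthetase genes in inguinal white fat on the log2 scale, with points for the authors' deposited values, bars for unadjusted 95% intervals and a dashed line at the median of all genes (0.13). Intervals lie wholly above 0 for 2 cytosolic and 4 mitochondrial genes and wholly below 0 for Vars.

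Most cytosolic enzymes had interactions of less than 2-fold, with Vars as the exception. Their median was 0.29 in iWAT, 16 of 20 were above 0 and 12 of 20 were above the median of all genes. Standard errors lay between 0.21 and 0.49, with a median of 0.27, against 0.51 over all genes. For 13 of the 20 the 95% interval stayed within -1 and 1, that is within a 2-fold difference of the KO effects, which held for 18.8% of all genes. For the other 7, among them Vars and Yars, the interval reached beyond 2-fold.

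Eprs was nearest to the threshold. It encodes the fused enzyme that charges glutamate and proline (ENSMUSG00000026615.15, chromosome 1, 185095241 to 185160557). The authors' deposited table gave Eprs an interaction of 0.70 ± 0.21 (standard error, 95% interval 0.25 to 1.15, adjusted p = 0.0645 in limma). A size of 0.78 would have been needed to pass at that error. Eprs had the highest mean log2 expression of all 37 genes, 8.40, higher than 97.6% of genes in the table or equal to them. Gars, the glycyl enzyme of both compartments (chromosome 6, 55014992 to 55056485), stood at 0.76 ± 0.33 (0.053 to 1.47, adjusted p = 0.174) per the authors' deposited table. Sars, the seryl enzyme (chromosome 3, 108332181 to 108352525), was at 0.57 ± 0.27 (-0.0071 to 1.15, adjusted p = 0.209) per the authors' deposited table. These 3 cytosolic genes had the smallest p above 0, and none passed.

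Vars went the other way. The gene of the valyl enzyme (chromosome 17, 35219963 to 35235298) had an interaction of -1.20 ± 0.49 (-2.25 to -0.15, adjusted p = 0.152 in limma) per the authors' deposited table, the lowest of the 37 values. Farsa, the alpha subunit of the phenylalanyl enzyme (chromosome 8, 85583618 to 85595886), was at -0.53 ± 0.26 (-1.08 to 0.021, adjusted p = 0.219) per the authors' deposited table. Its partner Farsb, the beta subunit of the same enzyme, was at 0.19 ± 0.27 (-0.38 to 0.76, adjusted p = 0.682) per the authors' deposited table. The intervals of the 2 subunits overlap, and the difference between them was not tested. The remaining 14 cytosolic genes ranged per the authors' deposited table from -0.25 for Rars, the arginyl enzyme, to 0.81 for Yars, the tyrosyl enzyme, with adjusted p between 0.304 and 0.996. Cars, Mars1, Aars and Lars were closest to 0 on the positive side (0.0033, 0.013, 0.043 and 0.044) per the authors' deposited table, and all 4 fell below 0 relative to the median of all genes.

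Enzymes inside and outside the multisynthetase complex had like medians. The 8 members of the complex (Dars, Eprs, Iars, Kars, Lars, Mars1, Qars and Rars) had a median interaction of 0.29 in iWAT, with 7 above 0, and the 12 other cytosolic genes 0.29, with 9 above 0. Of the 3 scaffold proteins, Aimp1 was at -0.17 ± 0.21, Aimp2 at -0.15 ± 0.36 and Eef1e1 at 0.31 ± 0.47 per the authors' deposited table, with adjusted p of 0.652, 0.822 and 0.709 in limma. By the fold of the catalytic domain, the median was 0.044 for the 9 cytosolic enzymes of class I and 0.31 for the 10 of class II. The fused Eprs has both folds and was left out of this split. These medians were compared as descriptions and no test was made between them.

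The mitochondrial enzymes lay higher and were measured less closely. Their median interaction in iWAT was 0.76, with 13 of 17 above 0 and the same 13 of 17 above the median of all genes. Standard errors ran from 0.30 to 1.28 with a median of 0.50, and mean log2 expression had a median of 3.82, against 5.87 for the cytosolic enzymes. Only Hars2 among the 17 had an interval within -1 and 1, and for 14 of the 17 the upper bound reached 1 or more. Intervals of most of these genes held both 0 and a 2-fold difference. Aars2, Nars2, Pars2, Sars2 and Wars2, all above 0, had the lowest mean expression of the 17. The median was not taken again without them.

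Nars2 and Aars2 led this group. Nars2, the mitochondrial asparaginyl enzyme (ENSMUSG00000018995.13, chromosome 7, 96600712 to 96713965), had an interaction of 1.97 ± 0.64 (standard error, 95% interval 0.59 to 3.36, adjusted p = 0.0855 in limma) per the authors' deposited table. A size of 2.40 would have passed. Aars2, the mitochondrial alanyl enzyme (ENSMUSG00000023938.9, chromosome 17, 45817767 to 45831769), had the largest value of the 37, 3.52 ± 1.28 (0.76 to 6.28, adjusted p = 0.116), per the authors' deposited table. A larger interaction was found for 0.83% of all genes. Its mean log2 expression of 2.07 was the lowest of the 37 and its interval the widest, and a size of 4.79 would have been needed to pass.

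Iars2, the mitochondrial isoleucyl enzyme (chromosome 1, 185016923 to 185061593), was at 0.82 ± 0.33 (0.11 to 1.54, adjusted p = 0.150 in limma) per the authors' deposited table. It was the most highly expressed of the mitochondrial group, with a mean log2 expression of 6.55, and lies near Eprs on chromosome 1. Lars2, the leucyl enzyme (chromosome 9, 123195992 to 123291731), was at 1.02 ± 0.46 (0.022 to 2.01, adjusted p = 0.195) per the authors' deposited table. Yars2, the tyrosyl enzyme (chromosome 16, 16120829 to 16127504), was at 1.09 ± 0.52 (-0.025 to 2.21, adjusted p = 0.213) per the authors' deposited table. Sars2, the seryl enzyme, was at 1.31 ± 0.63 (-0.048 to 2.66, adjusted p = 0.217) per the authors' deposited table, and its mean log2 expression of 2.10 was next to the lowest of the 37. Vars2, Fars2, Wars2, Ears2, Pars2 and Rars2, which charge valine, phenylalanine, tryptophan, glutamate, proline and arginine, were also above 0 and ran from 1.04 for Vars2 to 0.30 for Rars2 with adjusted p between 0.302 and 0.761 per the authors' deposited table.

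Values below 0 were those of Tars2 (-0.31), Mars2 (-0.27), Hars2 (-0.066) and Cars2 (-0.065) per the authors' deposited table, which charge threonine, methionine, histidine and cysteine. All 4 had intervals that include 0. Class I and class II mitochondrial enzymes had medians of 0.76 (9 genes) and 0.70 (8 genes).

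**Figure D2:**
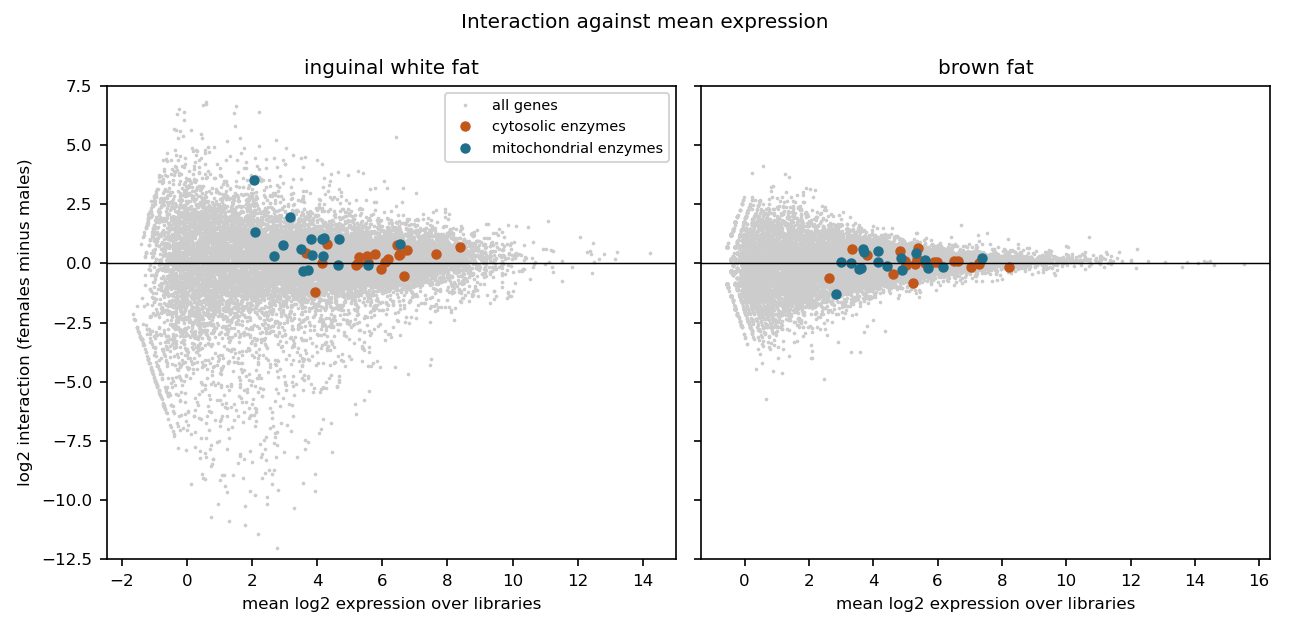
Log2 interaction of each gene against its mean log2 expression over the libraries, in inguinal white fat and in brown fat, with all genes in grey and the synthetase genes in colour. In white fat the mitochondrial enzymes sit at lower expression (median 3.82) than the cytosolic enzymes (5.87) and spread more widely, with Aars2 highest at 3.52.

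For 15 amino acids both a cytosolic and a mitochondrial gene were present, which gave 16 pairs because the cytosolic phenylalanyl enzyme has 2 subunits. In iWAT the mitochondrial gene had the higher interaction in 13 of 16 pairs, with a median difference of 0.49 on the log2 scale. The widest gaps were those of Aars2 at 3.52 and Aars at 0.043, Vars2 at 1.04 and Vars at -1.20, and Nars2 at 1.97 and Nars at 0.39, all per the authors' deposited table. The exceptions were the pairs for threonine, methionine and cysteine. In BAT the mitochondrial gene was higher in 9 of 16 pairs and the median difference was 0.013. Each pair comes from the same libraries, and the fit's covariance is not in the table, so no pair was tested.

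**Figure D3:**
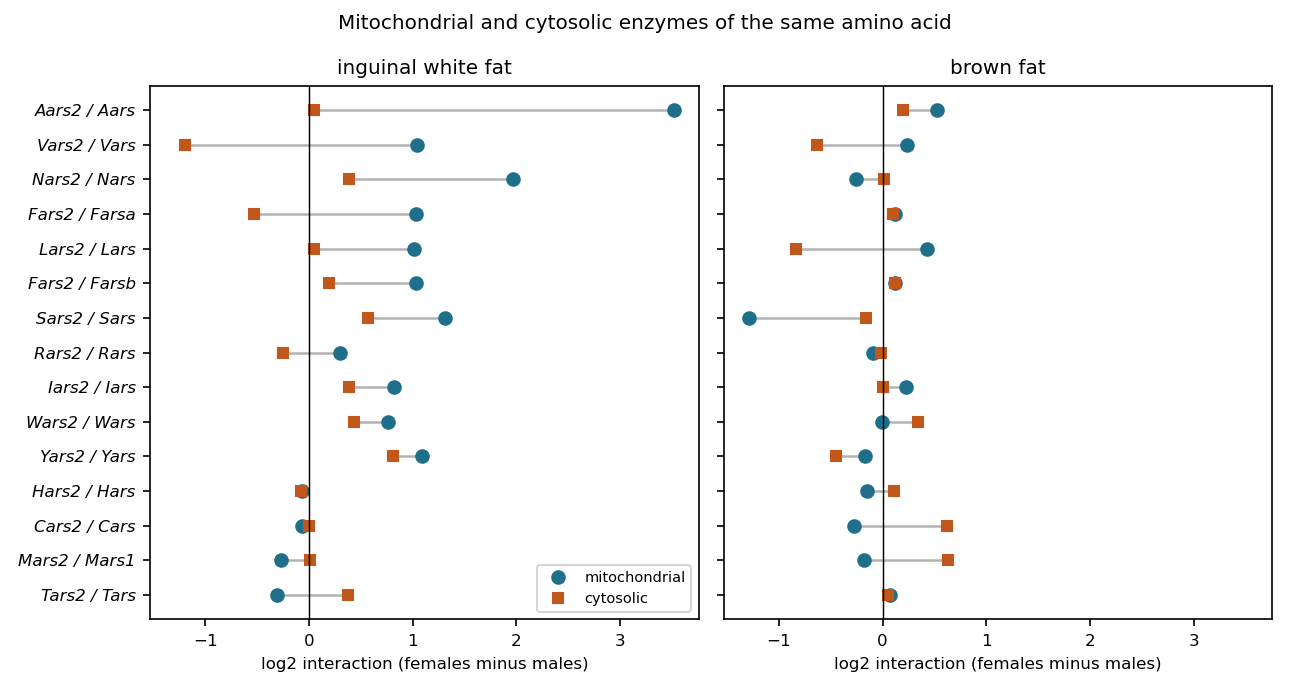
Log2 interaction of the mitochondrial gene (circles) and the cytosolic gene (squares) in inguinal white fat and in brown fat, for 15 of the 16 pairs, with a line joining each pair. The mitochondrial gene lies to the right in 12 of the 15 drawn pairs in white fat and in 8 of 15 in brown fat.

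Other genes of the charging pathway gave no further call. Bacterial-type charging of glutamine in mitochondria uses Ears2 and then an amidotransferase made of Gatb, Gatc and Qrsl1, and Mtfmt formylates the initiator methionyl-tRNA. None of the 4 partner genes passed in iWAT. Gatc was at 1.21 ± 0.45 (adjusted p = 0.122 in limma), Gatb at 1.39 ± 0.70 (0.236), Qrsl1 at -0.22 ± 0.55 (0.832) and Mtfmt at -0.12 ± 0.46 (0.895) per the authors' deposited table. Ears2 itself was at 0.59 ± 0.41 (adjusted p = 0.391) per the authors' deposited table.

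Genes that use the charged transfer RNA are given for scale. Among 12 genes of an elongation list, which holds elongation factors and the kinase Eef2k, 1 passed above 0 in iWAT and 1 below. Gfm1, a mitochondrial elongation factor, was at 1.89 ± 0.50 (adjusted p = 0.0487 in limma) and Eef1b2, a cytosolic one, at -1.16 ± 0.27 (adjusted p = 0.0361) per the authors' deposited table. Mitochondrial ribosomal protein genes had a median of 0.76 with 73 of 77 above 0 and none past the threshold. The mitochondrial synthetases had a median of 0.76 with 13 of 17 above 0. Their standard errors were wider, with a median of 0.50 against 0.40. Cytosolic ribosomal protein genes had a median of -1.17, with 54 of 83 past the threshold below 0. Over all genes 3.69% passed below 0 and 1.06% above. The cytosolic synthetases had a median of 0.29. Of them 0 of 20 passed, which does not set them apart from the 4.75% of all genes. Differences between these lists were not tested.

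The ATF4 and amino acid response list, which holds regulators and targets that share the pathway with the cytosolic synthetases, was mixed in iWAT. Of 28 measured genes 15 were above 0, with a median of 0.12 against 0.13 over all genes. At an unadjusted p of 0.05 in limma, 8 were above 0 and 4 below, while over all genes 11.9% were above and 12.6% below. After adjustment 1 gene of the list passed, below 0. That gene was Slc7a1, a carrier of arginine and lysine, at -1.71 ± 0.45 (adjusted p = 0.0472 in limma) per the authors' deposited table. Atf4 was at 0.20 ± 0.26 (adjusted p = 0.653) and Asns, asparagine synthetase and an ATF4 target, at 0.99 ± 0.45 (adjusted p = 0.200) per the authors' deposited table, both picked for their role. In the interferon list 5 of 22 genes passed below 0 and the median was -0.94. Psmb8, an immunoproteasome subunit, was at -1.91 ± 0.39 and the transcription factor Irf1 at -1.51 ± 0.32 (both with an adjusted p of 0.0357) per the authors' deposited table. Wars, the cytosolic tryptophanyl enzyme that interferon gamma induces, stood at 0.44 ± 0.38 (-0.38 to 1.25, adjusted p = 0.496) per the authors' deposited table.

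Marker lists of cell types were read in the same iWAT table. Among these lists, those of T and B cells held most of the marker genes that passed. Over all genes 3.69% passed below 0 and 1.06% above. All 17 T cell genes were below 0 (median -6.86, 13 past the threshold), as were all 16 B cell genes (median -8.28, 8 past it). Skeletal muscle genes had a median of 3.70 (16 of 16 above 0, none passed), mature adipocyte genes 0.54 (14 of 15 above 0, none passed) and endothelial genes 0.55 (7 of 8, none passed). Thermogenic adipocyte genes had a median of 3.17 with 1 past the threshold in each direction, mammary epithelial genes 1.74 (9 of 9 above 0, none passed) and macrophage genes -0.15 (4 of 12 above 0, none passed). The part of these cells in the synthetase values was not tested, and in bulk tissue fewer cells of a type cannot be told apart from less RNA per cell.

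In brown fat the synthetase genes centred on 0. None of the 37 passed an adjusted p of 0.05 in limma per the authors' deposited table, where 2 of 15363 genes (0.013%) did. The median was 0.041 over the 37, 0.030 over the cytosolic and 0.041 over the mitochondrial genes, against 0.012 over all genes, and 21 of 37 were above 0 against 51% of all genes. At an unadjusted p of 0.05, 1 member was above 0 and 1 below, while 6.51% of all genes passed, 3.33% above and 3.18% below. The 95% interval stayed within -1 and 1 for 13 of 20 cytosolic and 6 of 17 mitochondrial genes, and for 29.2% of all genes.

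**Figure D4:**
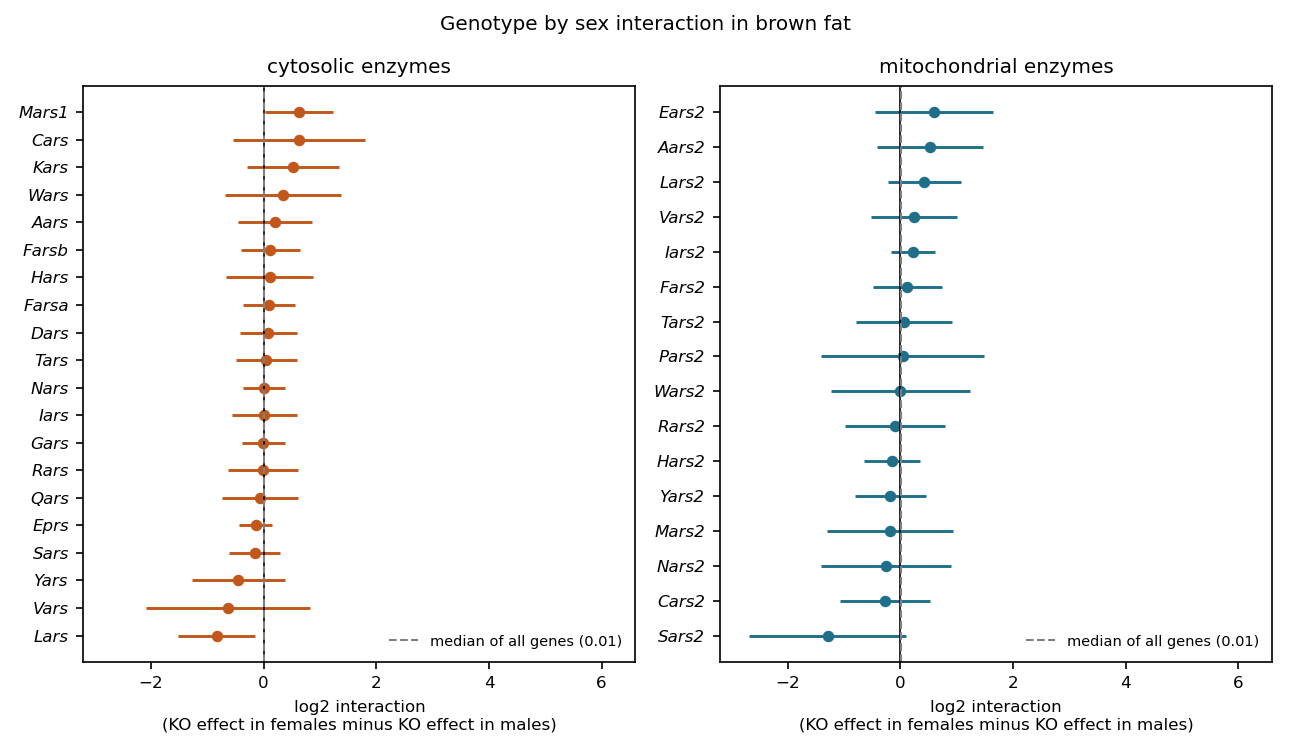
Genotype by sex interaction of the 20 cytosolic and 16 of the 17 mitochondrial genes in brown fat on the log2 scale, drawn to the same axis as the plot for white fat, with points for the authors' deposited values and bars for unadjusted 95% intervals. Only the intervals of Mars1 (above 0) and Lars (below 0) leave out 0.

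Lars and Mars1, which charge leucine and methionine and both belong to the multisynthetase complex, were the cytosolic genes with the smallest p in BAT, on opposite sides of 0. Lars (chromosome 18, 42335363 to 42395259) was at -0.83 ± 0.34 (-1.51 to -0.15, adjusted p = 0.690 in limma) per the authors' deposited table. Mars1 (chromosome 10, 127132090 to 127147655) was at 0.63 ± 0.30 (0.028 to 1.24, adjusted p = 0.751) per the authors' deposited table. Kars, Yars and Cars followed with 0.51 ± 0.40, -0.45 ± 0.41 and 0.63 ± 0.57 (adjusted p = 0.879, 0.899 and 0.899) per the authors' deposited table. Eprs, the leading cytosolic gene of iWAT, had -0.14 ± 0.14 (-0.44 to 0.15, adjusted p = 0.910) in BAT per the authors' deposited table, the smallest error of the 37.

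Sars2, the mitochondrial seryl enzyme (chromosome 7, 28441417 to 28453296), had the lowest value in BAT, -1.29 ± 0.68 (-2.68 to 0.10, adjusted p = 0.789 in limma), per the authors' deposited table. Lars2 was at 0.43 ± 0.32 (adjusted p = 0.866), Iars2 at 0.23 ± 0.19 (0.880), Ears2 at 0.59 ± 0.51 (0.893) and Aars2 at 0.53 ± 0.46 (0.896) per the authors' deposited table. These are the mitochondrial genes with the smallest p in BAT, and every interval includes 0. Of the marker lists in the same table, skeletal muscle genes had a median of -3.40 (1 of 16 above 0, none passed), while 6 of 17 T cell and 10 of 16 B cell genes were measured at all, at a median of the mean log2 expression of 0.13 for the T cell and 0.078 for the B cell genes. Medians in BAT were -0.73 for macrophage genes (3 of 12 above 0) and 0.10 for mature adipocyte genes (9 of 15). They were 0.11 for thermogenic adipocyte genes (10 of 13) and -0.041 for endothelial genes (4 of 8). At an unadjusted p of 0.05 in limma, 6 of 16 muscle, 4 of 12 macrophage and 1 of 8 endothelial genes were below 0, against 3.18% of all genes. Above 0 at that p were 4 of 15 mature adipocyte genes, against 3.33% of all genes. The part of these cells in the synthetase values was not tested. No gene of any pathway or marker list passed in BAT, where mitochondrial ribosomal protein genes had a median of 0.11 (52 of 77 above 0) and cytosolic ones -0.013 (40 of 83). The elongation list had a median of 0.065 (7 of 12), interferon genes -0.20 (8 of 19) and ATF4 genes -0.051 (12 of 25). The 4 partners of mitochondrial charging were all above 0 in BAT, with a median of 0.37, and Gatc was at 0.77 ± 0.46 (adjusted p = 0.812 in limma) per the authors' deposited table. Of the scaffold genes, Aimp2 was at -0.60 ± 0.46 (adjusted p = 0.879) in BAT per the authors' deposited table.

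Does the interaction of a synthetase gene differ between the depots? The test of the difference, which takes the 2 tables as independent, called none of the 37 after Benjamini-Hochberg adjustment over 14502 shared genes, and 36 genes (0.248%) in all. At an unadjusted p of 0.05, 7 of the 37 were higher in iWAT and 0 lower, against 9.73% and 6% of all genes. Differences above 0 numbered 25 of 37, against 58.4% of all genes, with medians of 0.59 over the mitochondrial, 0.18 over the cytosolic and 0.20 over all genes. The 7 were Eprs, Sars2, Nars2, Lars, Aars2, Sars and Yars2. The labels do not say whether the same animals gave both depots.

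**Figure D5:**
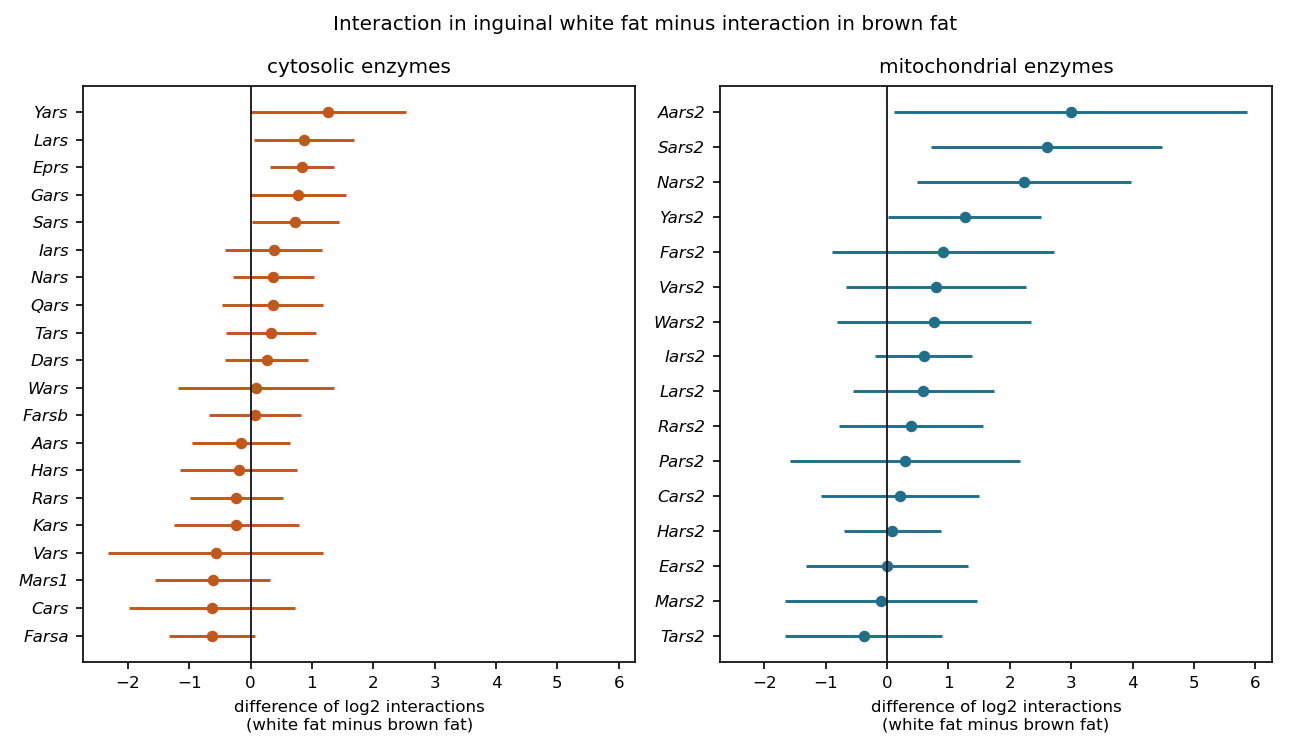
Difference of the log2 interaction, white fat minus brown fat, for the 20 cytosolic and 16 of the 17 mitochondrial genes, with bars for unadjusted 95% intervals computed from both tables. Intervals of 3 cytosolic genes (Eprs, Lars and Sars) and 4 mitochondrial genes (Aars2, Sars2, Nars2 and Yars2) lie above 0, and none lies below.

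For Eprs the difference, iWAT minus BAT, was 0.84 ± 0.25 on the log2 scale (95% interval 0.32 to 1.36, adjusted p = 0.117 over all genes in the same test). It was 2.60 ± 0.93 for Sars2 (0.72 to 4.47, adjusted p = 0.166) and 2.23 ± 0.86 for Nars2 (0.48 to 3.97, adjusted p = 0.196). Sars2 had interactions of 1.31 in iWAT and -1.29 in BAT per the authors' deposited table, so its difference draws on both depots, whereas that of Eprs draws mainly on iWAT. Lars had a difference of 0.87 ± 0.41 (0.059 to 1.69, adjusted p = 0.280), with 0.044 in iWAT and -0.83 in BAT per the authors' deposited table. Aars2 had the largest and least exact difference, 2.99 ± 1.36 (0.12 to 5.86, adjusted p = 0.295). Intervals within -1 and 1 were found for 5 of the 37, so for the rest neither a 2-fold difference between depots nor its absence is shown.

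Cytosolic enzymes were the more abundant messages in both depots. Levels were set between genes as mean log2 expression over the libraries less the log2 of exon length in kb, from GENCODE M21, and they carry no spread over samples. The length is the union of all annotated exons of a gene, so ranks depend on the isoforms annotated. Eprs, with 18.1 kb, ranked 8 in iWAT, though its mean log2 expression was the highest. On this scale Nars, the cytosolic asparaginyl enzyme, was first in iWAT with 5.52, followed by Gars with 4.81 and Farsb with 4.80. The lowest in iWAT was Aars2 with -0.18, below Mars2 with 0.23 and Nars2 with 0.35. The 12 highest genes in iWAT were all cytosolic, and Hars2 and Iars2, with 3.46 and 3.39, were the first mitochondrial ones. Medians were 3.77 for the cytosolic and 1.19 for the mitochondrial genes in iWAT.

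In BAT the order began with Gars (5.64), Nars (5.17) and Farsb (5.11) and ended with Mars2 (0.13), Vars (0.15) and Cars (0.63) on the same scale. Iars2 ranked 6 of 37 in BAT and 14 in iWAT, and Yars2 ranked 9 in BAT and 19 in iWAT. Medians were 3.47 for the cytosolic and 1.84 for the mitochondrial genes in BAT. As a share of the genes in its own table, the median mitochondrial member stood at percentile 48.6 of mean log2 expression in iWAT and 58.9 in BAT, and the median cytosolic member at 77.5 in iWAT and 75.4 in BAT. The tables were normalised separately, so levels were ranked within a table and not tested between them.

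By position, 13 of the 37 genes overlapped another gene of the tables on GRCm39, 10 of them a gene on the opposite strand. Hars and Hars2 lie head to head on chromosome 18 and share 198 bases, and had interactions of -0.082 and -0.066 in iWAT per the authors' deposited table. Mars1 overlaps Ddit3, a stress response transcription factor, by 68 bases, with 0.013 for Mars1 and 0.36 for Ddit3 in iWAT per the authors' deposited table. Iars2 shares 2034 bases with Rab3gap2, which was at 0.34 ± 0.29 in iWAT per the authors' deposited table. The sources used here do not state the strand setting of the counting, so reads from the shared bases cannot be assigned to either gene. Eprs, Vars, Nars2 and Aars2 overlapped no gene of the tables.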

How the data were processed

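Expression was measured by RNA-seq of total RNA, purified with a Zymo kit, per the labels' protocols. The submitters' processing notes name featureCounts, limma and GRCm39. The sources used here state no versions, aligner, annotation or strand setting. Per the file headers each comparison table holds the authors' log2 interaction and mean log2 expression, the moderated t-statistic (a score the authors deposited), and the p-value and adjusted p-value the authors deposited. Benjamini-Hochberg adjustment over each table gave the same adjusted p-values.

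Standard errors were computed as the log2 interaction over t. The total degrees of freedom from t and p were 13.4 in white fat and 33.9 in brown fat and gave 95% intervals. Differences between depots used summed squared errors and Welch-Satterthwaite degrees of freedom, two-sided. The threshold on the adjusted p was 0.05 without further filter. Steps were tested on simulated data. Software was scipy 1.17.1, pandas 2.3.3, numpy 2.4.6 and, for plots, matplotlib 3.10.9 under Python 3.11.15.

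Names of 48 library columns match no label, and these columns were used in no step. The planned fits of KO against WT within each sex were not made, and depth is unknown. Exon lengths came from GENCODE M21 (GRCm38), where 1 of 37 members had the same start, so none of its coordinates was used. All members enter the counts and medians, and 1 of them is not reported by name here or drawn in plots that name genes. The others could all be named. Errors and adjusted p are given for any past the threshold, the 5 cytosolic and 5 mitochondrial genes with the smallest p in each table, the 5 with the smallest p between depots, and up to 3 genes of each list. Others with errors were picked for their role or position. Members and lists were chosen with earlier results of these data known. Alternatives were a threshold of 0.10, centring on the median of all genes, protein-coding genes only, and a filter on mean log2 expression at log2 of 10.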

Additional observations from a re-analysis of the deposited data

How the results depend on the processing

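No synthetase gene passed an adjusted p of 0.05 (limma, or the test between depots) under any setting run that kept this threshold, namely all genes, protein-coding genes only and centring in white fat, in brown fat and between depots, and the filter on expression within each depot, which was not run between depots. At a threshold of 0.10 in white fat 2 did, Eprs and Nars2, beside 2027 genes of the whole table, and none did in brown fat. Centring on the median of all genes left 25 of 37 members above 0 in white fat, 19 in brown fat and 22 between depots, against 29, 21 and 25 as reported, and gave 58 genes in place of 36 in the whole table between depots. It turned the sign of 4 members in white fat, Aars (-0.087), Cars (-0.13), Lars (-0.086) and Mars1 (-0.12), and of 2 in brown fat, Iars (-0.0038) and Nars (-0.00023). Between depots it turned the sign of Farsb (-0.043), Hars2 (-0.033) and Wars (-0.026). The turns follow from the subtraction, since these values lay between 0 and the median taken off. The filter on expression kept 32 members in white fat and 33 in brown fat, with 24 of the 32 above 0 in white fat. The 5 left out there, Aars2, Nars2, Pars2, Sars2 and Wars2, were all mitochondrial and all above 0. The medians of the mitochondrial and cytosolic genes were not taken again without them. No paired analysis was possible because the library columns carry names that match no label. For the same reason, the fits of KO against WT planned with another pseudocount, a replicate left out, a filter or a block were not run. Precision is limited by 3 libraries in each group of white fat, and depth is unknown.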

Other observations

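Genes that act on transfer RNA beside the synthetases were read from a list in white fat. Of 12 measured genes 10 lay above 0, with a median of 0.51, and none passed. Ptrh2, a peptidyl-tRNA hydrolase of mitochondria, was at 1.22 ± 0.40 (adjusted p = 0.0851 in limma), and Dtd2, which clears mischarged transfer RNA, at 0.79 ± 0.36 (adjusted p = 0.191) per the authors' deposited table. Tarsl2, a threonyl-tRNA synthetase whose symbol the member rule does not take, was at 2.48 ± 0.91 (adjusted p = 0.118) in white fat per the authors' deposited table. Tars, which charges the same amino acid, was at 0.38 ± 0.25 (adjusted p = 0.365) in white fat per the authors' deposited table. In brown fat 7 of 11 genes of this list were above 0, the median was 0.029, and Tarsl2 was at 0.18 ± 0.34 (adjusted p = 0.963) per the authors' deposited table.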
